A study of Mus musculus with 965 samples.

Results

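The genes described here are T (brachyury), Mixl1, Eomes, Gsc, Mesp1, Tbx6, Lhx1, Evx1 and Fgf8, 9 genes of the primitive streak and of the mesoderm that leaves it. They were chosen by name, and all 9 were found among the 36849 genes of the count table. Reads were counted in 965 single cells of mouse embryoid bodies (EBs), the aggregates that embryonic stem cells (ESCs) of the E14 line form when leukemia inhibitory factor is withdrawn. The cells were Dnmt3a-/- (3AKO, clones 3A2 and 3A38), Dnmt3b-/- (3BKO, clones 3B126 and 3B77) or wild type (WT), and were taken at days 3, 6 and 8. Each plate of sorted cells came from a pool of 50 EBs of 1 clone and 1 day, and WT at day 8 was 2 plates (C343 and C344). For clone 3A2, day 8 was not analysed here. Each knockout was thus known from 2 clones at most and WT from 1 culture. By the labels, all 3AKO cells were of batch 1, 3B126 and WT of batch 2, and 3B77 of batch 3, so that only 3B126 and WT could be compared within a batch, and genotype and batch cannot be told apart elsewhere.

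In the embryo, the streak forms at the posterior side of the epiblast, where Nodal, Wnt and Bmp signals meet. Epiblast cells that enter it switch on T-box and homeobox factors, lose E-cadherin and move out as mesoderm or definitive endoderm. Eomes and Mixl1 are known from the early and anterior streak, Gsc and Lhx1 from its anterior end and the organizer, Mesp1 from the first mesoderm to leave, T and Evx1 from the streak and its posterior part, and Tbx6 from paraxial mesoderm. Fgf8 is the secreted growth factor of the streak, needed for cells to move away from it.

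All 9 are protein-coding genes, at these places of the mouse genome (build GRCm38, GENCODE vM21). T lies at chr17:8434423-8442496, Mixl1 at chr1:180693043-180697034, Eomes at chr9:118478212-118486132, Gsc at chr12:104471209-104473330 and Mesp1 at chr7:79792241-79793788. Tbx6 lies at chr7:126781483-126785560, Lhx1 at chr11:84518284-84525535, Evx1 at chr6:52313498-52318378 and Fgf8 at chr19:45736798-45742915. Reads were counted over their exons.

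A cell held 50096 to 3442378 reads, and the plates had medians of 3566 to 7203 detected genes. A gene was taken as detected in a cell at 3 or more reads. Since reads of full-length libraries without molecular identifiers are copies as well as molecules, the exact binomial (Clopper-Pearson, 95%) intervals below cover counting error only. The targeted transcripts followed the labels at day 3. Dnmt3a stood at 22.4 CPM in 3A2 and 12.9 CPM in 3A38, against 133 to 224 CPM elsewhere. Dnmt3b stood at 31.1 CPM in 3B126 and 30.6 CPM in 3B77, against 228 to 334.2 CPM (CPM give a gene's reads relative to all reads of the summed cells, scaled by TMM factors). For Dnmt3b the groups overlapped at day 6, at 47.4 and 9.52 CPM in the 3BKO clones against 8.29 to 69.95 CPM in the remaining clones. A pair of day 8 plates stood apart. The library labelled 3B77 day 8 and WT plate C343 held no cell with any of the 9 genes, 0 of 40 and 0 of 21 cells. The limit set by 3 counts is 7.5% and 14.3% of these cells, and the exact binomial upper limits are 8.81% and 16.1%. On these plates 23 of 40 and 14 of 21 cells held 2 or more mesenchyme markers, against 5 of 68 cells on WT plate C344. The part of the mesenchyme markers in the missing streak genes was not tested. Whether both plates carry the right labels cannot be settled from these data, and the day 8 values of 3BKO and WT depend on it. Day 8 numbers of cells are given by plate, and day 8 levels as unscaled CPM of single plates (a gene's reads relative to all reads of that plate, without TMM factors) where WT is set beside a knockout.

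The 9 genes were rare. Only 226 of the 965 cells held any of them, 65 held 2 or more and 44 held 3 or more. Eomes was seen in 100 cells, Fgf8 in 60, T in 55, Lhx1 in 49, Mixl1 in 45, Mesp1 in 24, Gsc and Evx1 in 21 each, and Tbx6 in 3. Levels in the positive cells were uneven. T had a median of 77.9 CPM in its positive cells and reached 1096 CPM, and Mesp1 had a median of 70.9 CPM. The 5 highest cells of each gene held 61.5% of all T reads, 57.9% of Mixl1, 55.7% of Mesp1 and 35.1% of Eomes reads.

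**Figure D1:**
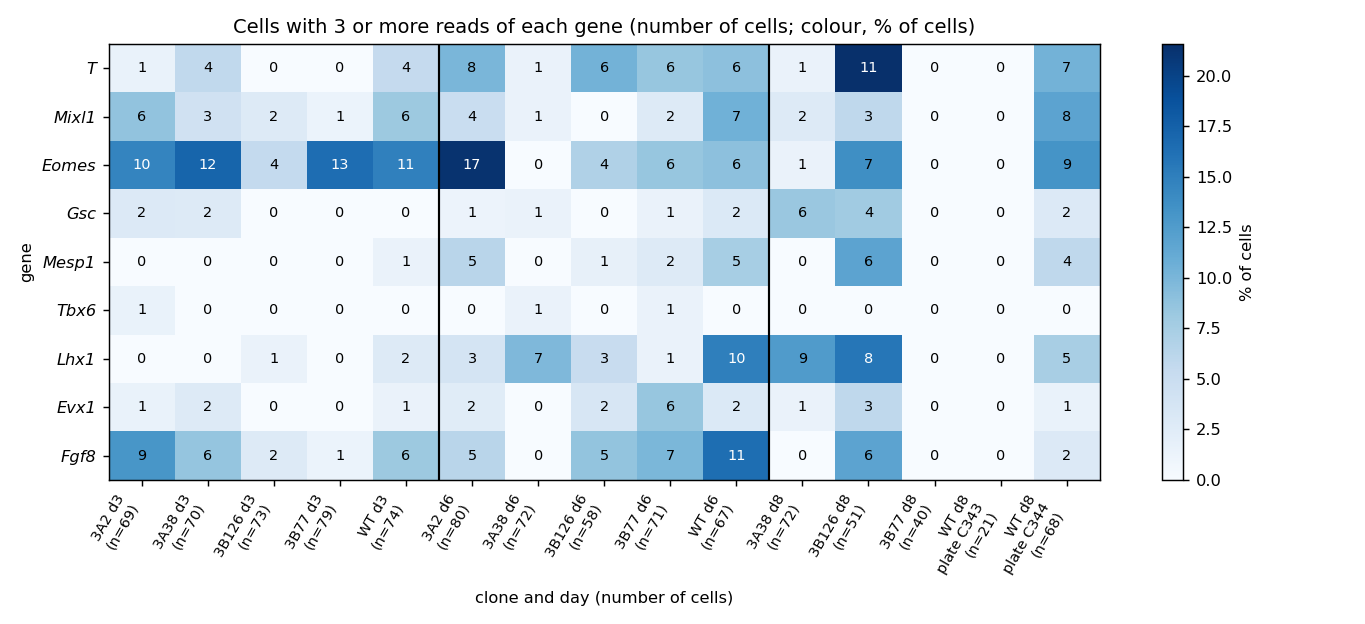
Number of cells with 3 or more reads of each gene (printed) and its share of the cells (colour, %), for each clone at days 3, 6 and 8 with WT day 8 split by plate. Eomes was the most frequent gene at day 3, T, Mesp1 and Lhx1 were seen mainly at days 6 and 8, and the library labelled 3B77 day 8 and WT plate C343 were at 0 throughout.

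T, the T-box factor after which the brachyury phenotype is named, was found in 9 day 3 cells, 27 day 6 cells and 19 day 8 cells. At day 3, T was in 1 of 69 cells of 3A2 and 4 of 70 of 3A38, in 0 of 73 cells of 3B126 and 0 of 79 of 3B77, and in 4 of 74 WT cells. At day 6, it was in 8 of 80 and 1 of 72 cells of the 3AKO clones 3A2 and 3A38, in 6 of 58 and 6 of 71 cells of the 3BKO clones 3B126 and 3B77, and in 6 of 67 WT cells. The groups overlapped at day 6, and both 3BKO clones were below the others at day 3. At day 8, T was in 11 of 51 cells of 3B126, its highest share at 21.6% (interval 11.3 to 35.3%), in 1 of 72 cells of 3A38 and in 7 of 68 cells of WT plate C344.

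Summed over the cells of a plate, T stood at 27.2 and 0.216 CPM in the 3AKO clones at day 6, at 27.8 and 10.46 CPM in the 3BKO clones and at 49.3 CPM in WT. In the same order of clones, day 3 values were 0.474 and 11.4 CPM, 0 and 0 CPM, and 2.74 CPM. In such sums, fewer positive cells and less RNA per cell cannot be told apart. The WT sum at day 6 rested on 1 cell, which held 91.4% of its T reads, had 45.9% mitochondrial reads and showed only 1 other gene of the set. Pooled, the 3BKO clones had 1048 T reads at day 6 and none at day 3. In reads, T was at least 297-fold higher at day 6 (day 3 set at a floor of 3 reads over both clones, with TMM factors). Against WT at day 3, T reads in 3BKO were at least 43.9-fold lower on the same floor. Both bounds treat reads as independent, while the 55 WT reads came from 5 cells, 1 of which held 43.6%. By cells, the exact upper limits at day 3 were 4.93% in 3B126 and 4.56% in 3B77, against a share of 5.41% in WT. The WT interval, 1.49 to 13.3%, overlapped both of theirs, and the share of 3A2, 1.45%, lay under both limits. The exact permutation test of 3BKO against the other clones gave p = 0.2 for these shares. For 3BKO against WT at day 3, edgeR gave T an unadjusted p = 0.0985.

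Mesp1, the bHLH factor of the earliest migrating and heart-forming mesoderm, was like T seen mainly at days 6 and 8. It was found in 1 cell at day 3, a WT cell, and in 13 cells at day 6 and 10 at day 8. At day 6, the cells were 5 of 3A2 and 0 of 3A38, 1 of 3B126 and 2 of 3B77, and 5 of WT. Its sums at day 6 were 9.04 and 0 CPM in the 3AKO clones, 0.830 and 2.65 CPM in the 3BKO clones and 7.42 CPM in WT, against at most 0.399 CPM in any clone at day 3. Clone 3A38, the one clone without Mesp1 at day 6, also lacked it at day 8. On single plates, unscaled, day 8 levels were 17.6 CPM in 3B126, against 18.4 CPM on WT plate C344 and 0 CPM on WT plate C343.

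The promoters of T and Mesp1 are shown because both genes were seen mainly at days 6 and 8 and shared 14 cells, and their windows differed from those of the other members in the letters they hold. RefSeq start sites of 7 members were matched (all but Mixl1 and Fgf8), each with the 250 bases before and the 50 bases after the start, in build GRCm38.p6. Both strands were searched for the letters CTTTGA (the TCF/LEF core of Wnt targets), GGTGTGA (a T-box site), CAGAC (SMAD) and AATCCACA (FOXH1), which did not overlap in these 2 windows. Capitals mark every match. The window of T lies at chr17:8434173-8434472 on the plus strand and that of Mesp1 at chr7:79793541-79793840 on the minus strand, and each is printed 5′ to 3′.
T promoter: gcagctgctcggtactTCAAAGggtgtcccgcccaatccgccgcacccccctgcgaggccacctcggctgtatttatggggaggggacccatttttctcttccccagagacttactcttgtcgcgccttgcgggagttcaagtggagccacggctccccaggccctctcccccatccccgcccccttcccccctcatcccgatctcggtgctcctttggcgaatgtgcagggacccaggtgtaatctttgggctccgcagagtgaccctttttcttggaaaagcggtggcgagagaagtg
Mesp1 promoter: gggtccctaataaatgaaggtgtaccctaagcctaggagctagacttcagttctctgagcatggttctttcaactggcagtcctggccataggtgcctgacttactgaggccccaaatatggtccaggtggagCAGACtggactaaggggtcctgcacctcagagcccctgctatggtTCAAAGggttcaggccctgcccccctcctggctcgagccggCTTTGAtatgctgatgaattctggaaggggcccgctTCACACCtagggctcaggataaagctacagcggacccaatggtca

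CTTTGA was found in these 2 windows only among the 7 matched members, on the reverse strand at bases 17 to 22 for T, and for Mesp1 on the reverse strand at bases 179 to 184 and on the forward strand at bases 220 to 225. Of 27018 promoters of the same length, 16.2% hold it. GGTGTGA was found in Mesp1 alone, on the reverse strand at bases 256 to 262, just past the RefSeq start, and is in 3.96% of all promoters. In GENCODE vM21, Mesp1 reaches to base 79793788 on the minus strand, so that most of its window lies inside that gene model. Its matches and CpG ratio depend on the start taken. CAGAC was in 4 of the 7 members and in 49.7% of all promoters, and AATCCACA in none of the 7 and in 0.873%. A match is a string of letters, not a shown binding site. The windows also differed in CpG content, the substrate of the deleted enzymes. Their observed over expected CpG ratio was 0.174 in Mesp1 and 0.286 in Tbx6, 0.607 in both T and Eomes, 0.710 in Evx1, 0.934 in Gsc and 0.961 in Lhx1, with a median of 0.388 over all promoters.

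Eomes, the T-box factor upstream of Mesp1 and of definitive endoderm, was the most frequent of the 9 genes at day 3. It was then in 50 cells, 10 and 12 of the 3AKO clones 3A2 and 3A38, 4 and 13 of the 3BKO clones 3B126 and 3B77, and 11 of WT. These day 3 cells were mostly cells with Eomes alone (37 of 50) and their median level was 14.4 and 17.9 CPM in the 3AKO clones, 53.2 and 19.8 CPM in the 3BKO clones and 79.02 CPM in WT. Eomes was alone in 20 of 33 cells at day 6 and in 2 of 17 at day 8. The clones spread widely at day 6, with 17 of 80 cells in 3A2 and 0 of 72 in 3A38, 4 of 58 in 3B126 and 6 of 71 in 3B77, and 6 of 67 in WT. The highest sum was that of 3B126 at day 8, of which 1 cell held 53.6%. Unscaled, that plate had 56.1 CPM, against 16.03 CPM on WT plate C344 and 0 CPM on WT plate C343.

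Mixl1, the homeobox factor of streak and endoderm, shared 21 of its 45 cells with Eomes. It was seen in 18 cells at day 3, 13 of them with no other gene of the set, and in 14 at day 6 and 13 at day 8, of which 3 and 4 were alone. At day 6, 4 and 1 cells of the 3AKO clones, 0 and 2 cells of the 3BKO clones and 7 WT cells had it. At day 8, it was in 3 of 51 cells of 3B126 and 2 of 72 of 3A38, and in 8 of 68 cells of WT plate C344. Unscaled, these plates had 16.2 CPM in 3B126, 3.21 CPM in 3A38 and 24.1 CPM on WT plate C344, while WT plate C343 was at 0. Clone 3B126 had no read of Mixl1 at day 6.

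Gsc and Lhx1 mark the anterior streak. Gsc was in 4 cells of day 3, 5 of day 6 and 12 of day 8, and no sum exceeded 3.27 CPM (3B126 at day 8). Lhx1 was in 3 cells of day 3, 24 of day 6 and 22 of day 8. Its day 6 cells were 3 of 80 and 7 of 72 in the 3AKO clones 3A2 and 3A38, 3 of 58 and 1 of 71 in the 3BKO clones 3B126 and 3B77, and 10 of 67 in WT. The day 6 sums were 3.22 and 6.03 CPM in the 3AKO clones, 1.51 and 0.201 CPM in the 3BKO clones and 20.7 CPM in WT, with both 3BKO clones below the other 3. By share of cells the groups overlapped, with 5.17% in 3B126 and 3.75% in 3A2. Of the WT reads of Lhx1 at day 6, 1 cell held 59.5%. At day 3, the only Lhx1 sum above 1 CPM was that of 3B126 (7.92 CPM), of which 1 cell held 98.6%.

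In clone 3A38, Lhx1 was mostly seen alone. Of its Lhx1 cells, 7 of 7 at day 6 and 8 of 9 at day 8 held no other gene of the set, as did 4 of the 10 in WT at day 6. All 8 such cells of day 8 held 2 or more neuron markers (Tubb3, Dcx, Nefl, Map2), as did 30 of the 72 cells of that plate, while 4 of the 7 such cells of day 6 held 2 or more mesenchyme markers. Lhx1 is also known from spinal and brain interneurons and from kidney mesoderm. In 3A38 at day 8, all 6 Gsc cells likewise lacked the other genes and 5 of them held 2 or more mesenchyme markers, a tissue in which Gsc is used again later in the embryo. Among cells of 3A38 with none of the 9 genes, 10 of 62 at day 6 and 14 of 53 at day 8 held 2 or more mesenchyme markers.

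Evx1, the homeobox factor of the posterior streak, stayed low, with at most 2.46 CPM (3A38 at day 8, all reads in 1 cell). At day 6, it was in 6 of 71 cells of 3B77 and 2 of 58 of 3B126, against 2 of 80 and 0 of 72 cells of 3A2 and 3A38 and 2 of 67 WT cells. Tbx6, which turns streak cells towards paraxial mesoderm, was hardly detected, with 22 reads in all and 3 cells, 1 each in 3A2 at day 3, 3A38 at day 6 and 3B77 at day 6, so that no fold is given for it. Fgf8 was in 24 cells of day 3, 28 of day 6 and 8 of day 8. Its day 6 cells were 5 of 80 and 0 of 72 in the 3AKO clones 3A2 and 3A38, 5 of 58 and 7 of 71 in the 3BKO clones 3B126 and 3B77, and 11 of 67 in WT. At day 3 they were 9 of 69 and 6 of 70, 2 of 73 and 1 of 79, and 6 of 74 in the same order.

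The sums were compared with edgeR's quasi-likelihood test over all 24083 genes that passed the filter on low counts, all 9 members among them. For day 6 against day 3, averaged over the genotypes, 0.0374% of the genes were called at an adjusted p under 0.05 (9 genes, all higher), and 0 of the 9 members. The members' median log2 fold change was 1.95, against 0.11 over all genes, and 1.87 where groups at 0 reads were set at the floor of 3 reads. Mesp1 had the lowest p of them, with a log2 fold change of 5.81 ± 2.13 (SE, edgeR unadjusted p = 0.0168, adjusted p = 0.320). It was the only member with an unadjusted p under 0.05, and its sums were higher at day 6 in 4 of 5 clones. Its day 3 sums held 1 read in 3AKO and 2 in 3BKO, under the floor of 3, so that the size of its fold is uncertain. Without single clones, its log2 fold change ran from 2.27 to 6.73. T, Lhx1 and Evx1 had edgeR adjusted p = 0.453, 0.433 and 0.492, with fitted folds that depend on a group at 0 and are not given. The log2 fold change was 0.16 ± 1.70 (SE) for Eomes, 0.55 ± 1.69 for Mixl1, 0.79 ± 1.40 for Fgf8 and 1.95 ± 1.65 for Gsc, none of them called. DESeq2 on the same sums called 3 members for this contrast, T, Mesp1 and Lhx1, among 1428 of all 24083 genes. It gave no adjusted p for 2 members. Without the filter on low counts, edgeR called the same 3 members, among 808 of 35661 genes.

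In the other 6 contrasts (day 8 against day 6, 3BKO against WT at each day, and 3AKO against WT and 3BKO against 3AKO at day 6), edgeR called 0% of all genes and 0 of 9 members, and 0 members had an unadjusted p under 0.05. Over all genes, 341 to 1347 had one. For 3BKO against WT at day 6, 2 of 9 members had a positive log2 fold change and their median was −1.73, against 0.04 over all genes. Lhx1 had −4.60 ± 2.71 (SE), Mixl1 −2.62 ± 2.99, Gsc −2.35 ± 2.68, Mesp1 −2.09 ± 2.704, Eomes −1.73 ± 3.00, T −1.37 ± 3.13, Fgf8 −1.32 ± 2.46 and Evx1 0.14 ± 2.71, each with an edgeR adjusted p = 1. With stricter cells (at least 100000 reads and at most 30% mitochondrial reads), T had 4.97 and Evx1 −1.13. At day 6 those limits kept 26 of 67 WT cells and 30 of 58 cells of 3B126. They left out the WT cell with 91.4% of the T reads, and the part of that cell alone was not tested. For 3AKO against WT at day 6, 1 of 9 was positive with a median of −1.44 (all genes, 0.16), and for 3BKO against 3AKO at day 6, 5 of 9 with a median of 0.09 (all genes, 0.00). DESeq2 called T lower in 3BKO than in WT at day 3 and Mesp1 lower at day 8 than at day 6. Of all 24083 genes, it called 212 and 338 in these contrasts. With SEs of 2.46 to 3.13 on the log2 scale for the genes named at day 6, even large differences between genotypes could be missed in these sums. Lhx1 at −4.60 was not called by edgeR. Nor was T at day 3, although its reads were at least 43.9-fold lower in 3BKO than in WT on the floor of 3 reads.

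Cells holding several of the genes were then counted, since they are not weighted by 1 cell with many reads. At day 6, 2 or more of the genes were found in 8 of 80 cells of 3A2 (10.0%), 1 of 72 of 3A38 (1.39%), 5 of 58 of 3B126 (8.62%), 6 of 71 of 3B77 (8.45%) and 10 of 67 of WT (14.9%, interval 7.40 to 25.7%). The 3BKO clones lay between the lowest and the highest of the others. Their mean was 8.54% ± 0.12 (SD, n = 2), against 8.77% ± 6.85 (SD, n = 3) in the other clones, with p = 1 in an exact two-sided permutation test over the clones that cannot go below 0.1. Within batch 2, 3B126 had 8.62% and WT 14.9%. With each cell thinned to 50000 reads and 1 read counted, the shares were 8.75% in 3A2, 0% in 3A38, 8.62% in 3B126, 11.3% in 3B77 and 20.9% in WT. None of the 9 genes passed the same exact test at day 6 (adjusted p = 0.8 for each).

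**Figure D2:**
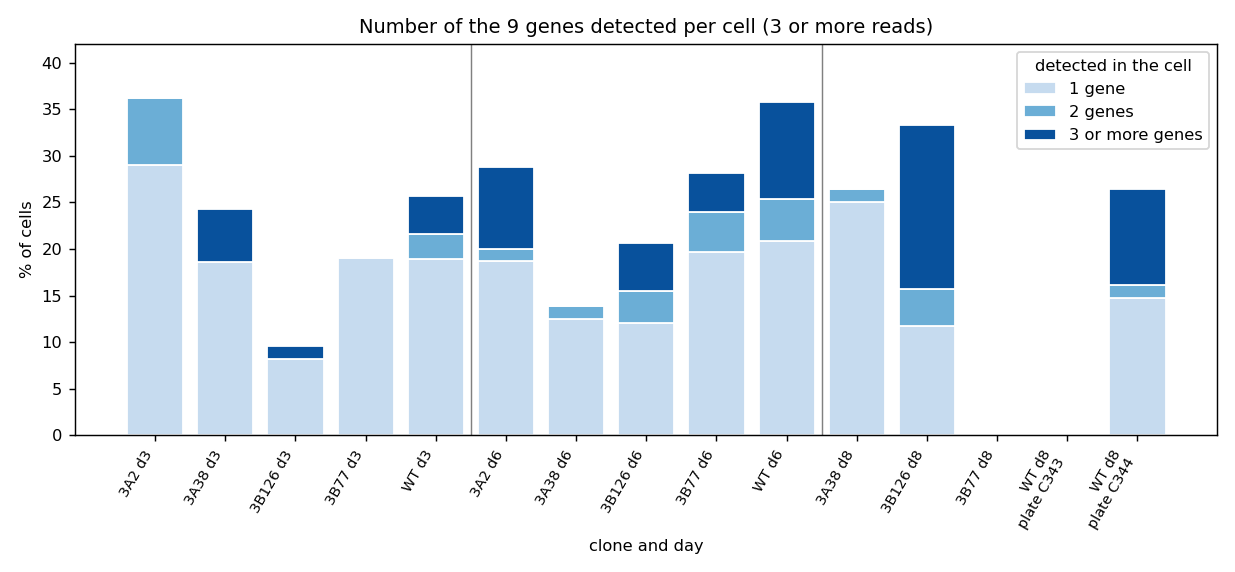
Share of cells (%) in which 1, 2 or at least 3 of the 9 genes were detected at 3 or more reads, for each clone at days 3, 6 and 8, with WT day 8 split by plate. Cells with 3 or more genes were rare at day 3, reached 17.6% in 3B126 at day 8 and were absent from 3A38 at days 6 and 8.

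At day 3, cells with 2 or more genes were 1 of 73 in 3B126 and 0 of 79 in 3B77 (3.80% by the limit of 3 counts, exact upper limit 4.56%), against 5 of 69 in 3A2, 4 of 70 in 3A38 and 5 of 74 in WT. Both 3BKO clones lay below the other 3, with means of 0.685% ± 0.969 (SD, n = 2) against 6.57% ± 0.78 (SD, n = 3) and an exact two-sided permutation p = 0.1, the smallest that 5 clones allow. This comparison was added after the counts had been seen. The difference of −5.89 percentage points was −1.62 at 10 reads (exact permutation p = 0.5) and −10.1 at 1 read (exact permutation p = 0.2). Within batch 2, the shares were 1.37% in 3B126 and 6.76% in WT. After thinning they were 1.37% in 3B126 and 0% in 3B77, against 1.45% in 3A2, 5.71% in 3A38 and 9.46% in WT, so that 3A2 lay beside 3B126 (p = 0.2 in the same exact test). The plate of 3B126 at day 3 had a median of 3713 detected genes, against 5096 on the WT plate, while that of 3B77 had 6907, and the part of this in the shares was not tested.

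Over the 5 clones, the share of cells with 2 or more genes was 8.68% ± 4.85 (SD) at day 6 and 4.22% ± 3.31 at day 3. The difference was 4.46 ± 5.42 percentage points (SD, n = 5), higher at day 6 in 4 clones and lower in 3A38, with p = 0.1875 in an exact two-sided sign-flip permutation test that cannot go below 0.062. Lhx1 was higher at day 6 in all 5 clones, with 6.996% ± 5.37 of cells at day 6 and 0.815% ± 1.21 at day 3 (exact sign-flip permutation p = 0.062, adjusted p = 0.5625 over the 9 genes). Mesp1 was higher in 4 clones and at 0 on both days in 3A38 (p = 0.125, adjusted p = 0.5625 in the same exact test). Eomes and Mixl1 each had a lower share at day 6 in 3 of 5 clones (exact adjusted p = 0.65625 for both). At day 8, 2 or more genes were in 11 of 51 cells of 3B126 and 1 of 72 cells of 3A38, against 8 of 68 cells of WT plate C344.

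Pairs of the genes were then counted in single cells. For each of the 36 pairs, the cells with both genes were compared with the product of both shares within each plate, summed over plates. In 33 pairs the observed number was higher, and the other 3, all with Tbx6, were seen in no cell. T and Fgf8 shared 25 cells, against 4.89 by the product, which is 45.5% of the T cells and 41.7% of the Fgf8 cells. Mixl1 and Eomes shared 21 cells (product 5.69), which is 46.7% of the Mixl1 cells and 21% of the Eomes cells. Eomes and Lhx1 shared 18 cells (product 4.06), Lhx1 and Fgf8 also 18 (3.46), T and Mesp1 14 (2.98) and Mesp1 and Lhx1 13 (2.28). Counting at 1 read, 36 of the 36 pairs were above the product, at 10 reads 24, and after thinning 34. Cells of a plate are not replicates, and no p is given for these counts.

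**Figure D3:**
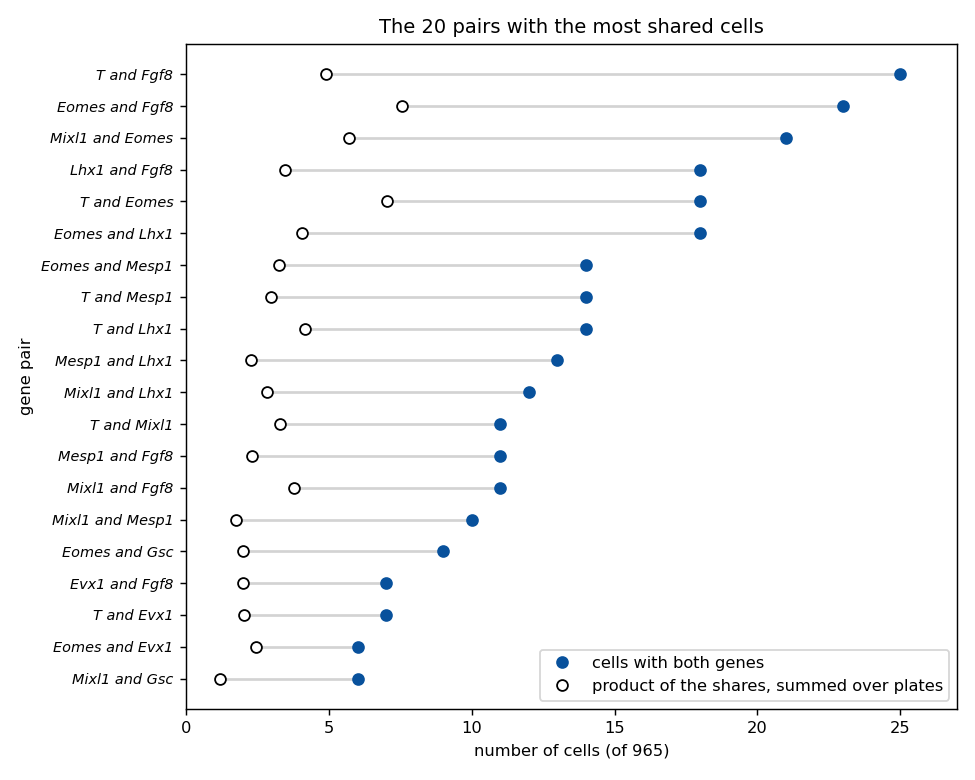
Number of cells in which both genes of a pair were detected (filled) and the number given by the product of their shares within each plate (open), for the 20 pairs with the most shared cells. The filled point lies to the right of the open one in each of these pairs, most widely for T and Fgf8 with 25 cells against 4.89.

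Of the 9 genes, Mesp1 had the largest part of its reads in cells with 3 or more of them. Each gene helped to choose these cells, which raises its own part, and no part was computed with the gene left out of the choice. The 44 such cells held 97.9% of all Mesp1 reads, 82.1% of Mixl1, 60.4% of T, 60.2% of Eomes and 49.9% of Fgf8 reads, but 41.6% of Lhx1, 39.3% of Gsc and 30.4% of Evx1 reads. They came from 9 of the 14 sums and from 4 of the 5 clones at day 6, with 7 cells of 3A2, 3 of 3B126, 3 of 3B77 and 7 of WT. Their median was 287519.5 reads and 6418.5 detected genes, against 242642 reads and 5645 genes in cells with none of the 9, and the part of depth was not tested. Doublets were not searched for. In 27 of the 44 cells the stricter limits on total and mitochondrial reads were also met, but in none of the 3 cells of 3B126 at day 6.

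Other genes of gastrulation were seen with them in these 44 cells. Of 52 genes in 6 lists (streak signals, Wnt targets and caudal genes, the epithelial to mesenchymal switch, paraxial mesoderm, anterior streak and endoderm, and lateral and cardiac mesoderm), each was compared with the other cells of the same 9 plates, weighted by plate. In all, 42 of the 52 were in more of the 44 cells than those gave and 9 in fewer. Of all 24083 tested genes, 42.3% were in more by the same weighting, and of the 14339 of them seen in at least 10 cells of these plates (a limit set after the counts had been seen) 58.9% were, beside 35 of the 42 list genes seen as often (83.3%). By list, more were 8 of 11 signals, 8 of 9 Wnt targets and caudal genes, 3 of 5 genes of the switch, 6 of 9 paraxial genes, 8 of 9 anterior genes and 9 of 9 lateral and cardiac genes. The genes named next were picked for their difference. The number beside each is the one that would be seen if the 44 cells held the gene as often as the other cells of their own plates. Snai1, the repressor that switches off E-cadherin, was in 14 of the 44 cells, against 0.132 from the rest of the plates. Cdh1, E-cadherin itself, was in 6 of the 44, against 17.6. Cyp26a1, which degrades retinoic acid, was in 24, against 4.05, and Cer1, a secreted Nodal inhibitor of the anterior streak and endoderm, in 11, against 0.350.

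Among mesoderm genes, Rspo3, a Wnt agonist, was in 26 of the 44 cells, against 4.50 from the rest of their plates. Pdgfra, the receptor of early mesoderm, was in 22, against 2.91, Gata6 in 19, against 2.23, and Aplnr in 17, against 2.88. Mesp2 was in 3, against 0, and Msgn1, a target of Tbx6, in 4, against 0.055. Among the signals, Foxh1, the Nodal cofactor, was in 32 of the 44 cells, against 10.8, and Wnt3 in 12, against 2.83. Gdf3 and Fgf4, which go with pluripotency, were the other way, with 7 cells against 19.3 for Gdf3 and 2 against 9.73 for Fgf4.

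**Figure D4:**
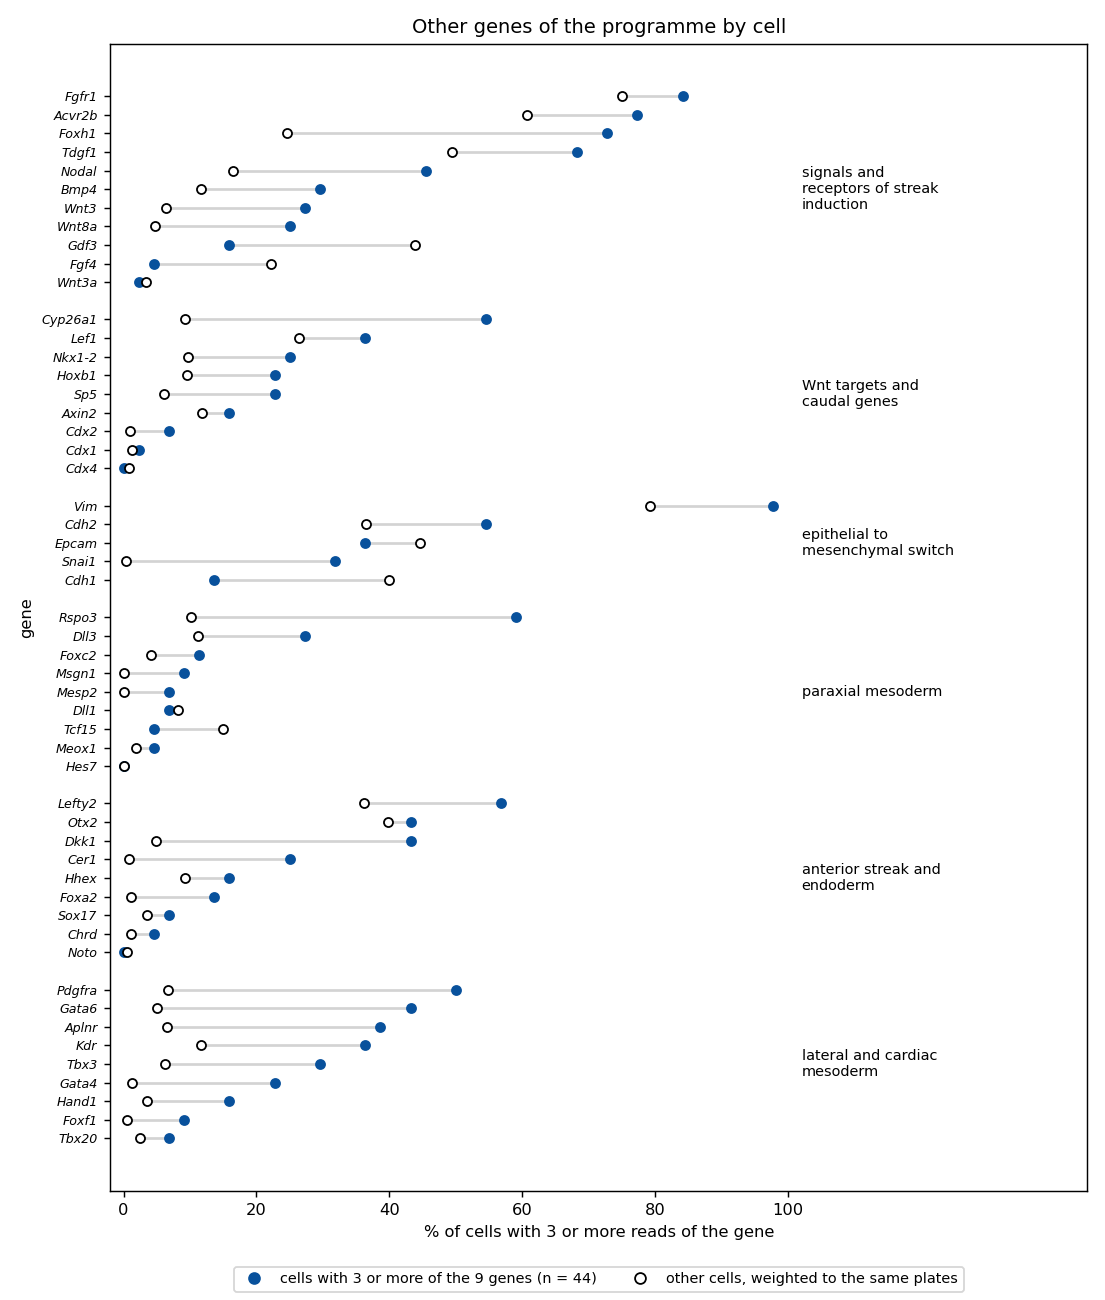
Share of cells (%) with 3 or more reads of each gene of 6 lists, in the 44 cells with at least 3 of the 9 genes (filled) and in the other cells weighted to the same plates (open). Snai1, Rspo3, Cyp26a1, Pdgfra and Gata6 lie far to the right in the 44 cells, and Cdh1, Gdf3 and Fgf4 to the left.

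Summed over whole plates, few of these genes passed the test. At day 6, Rspo3 had 54.8 and 20.6 CPM in the 3AKO clones, 22.7 and 7.48 CPM in the 3BKO clones and 35.3 CPM in WT, against at most 0.541 CPM in any clone at day 3. Pdgfra had 6.95 and 33.8 CPM, 8.75 and 2.55 CPM, and 21.9 CPM in the same order at day 6, against at most 1.13 CPM at day 3. Both rose in 5 of 5 clones (edgeR adjusted p = 0.0153 each), and they were the only 2 of the 52 that edgeR called in any of the 7 contrasts. Without clone 3B126 neither was called (edgeR adjusted p = 0.0601 for Rspo3 and 0.0633 for Pdgfra). Day 3 groups at 0 set the size of both fitted folds, which are not given.

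In the other 4 lists no gene was called for day 6 against day 3. Of the 11 signals, 6 had a positive log2 fold change, and the list had a median of 0.19 with groups at 0 reads set at the floor (fitted Tdgf1 −2.61 ± 1.69, Gdf3 −4.37 ± 1.68 and Fgfr1 −0.07 ± 0.53, SE). Of the 9 Wnt targets and caudal genes, 8 were positive, with a median of 2.93 on that floor, and Lef1 had −0.31 ± 0.75 and Nkx1-2 3.13 ± 1.39, with an edgeR adjusted p = 0.275 for Cyp26a1. The genes of the switch had a median of 2.06 on that floor (Vim 2.08 ± 0.60, Cdh1 −0.74 ± 1.58 and Epcam −2.08 ± 1.09), and the anterior genes one of 1.97 (Lefty2 −3.36 ± 1.78 and Otx2 −0.69 ± 1.03, with an edgeR adjusted p = 0.202 for Dkk1). The fitted median over all genes was 0.11. A group stood at 0 reads for 6 of the 9 Wnt targets and caudal genes and for 6 of the 9 anterior genes.

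Across the 15 plates, the genes most like Mesp1 in log2(CPM + 1) were Cyp26a1 (Pearson r = 0.93), Dkk1 (0.889) and Gm5805 (0.875), those most like Mixl1 were Eomes (0.814), Mesp1 (0.768) and Pglyrp1 (0.756), those most like Eomes were Nectin3 (0.827), Mixl1 (0.814) and Prdm14 (0.804), and those most like T were Gm29361 (0.845), 1700013H16Rik (0.839) and Crym (0.807), among 11973 genes. These plates share clones, batches and depth, and the values are a description.

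The 44 cells were not all alike in what they held. Split after their values were seen, 17 held both T and Eomes, 16 Eomes without T and 11 T without Eomes. Of the 8 cells of day 3, 7 held both. At day 6, 6 held both, 6 Eomes alone of the pair and 8 T alone, and at day 8 the numbers were 4, 9 and 3. By clone, all 3 cells of 3B126 at day 6 held T without Eomes, whereas 5 of the 7 WT cells at day 6 and 6 of the 7 WT cells at day 8 held Eomes without T. The 9 cells of 3B126 at day 8 were 3 of each kind.

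Genes picked for their difference in this split are given next. Gata6 was in 14 of the 16 cells with Eomes and no T, in 3 of the 17 with both and in 2 of the 11 with T and no Eomes. Dkk1 was in 13, 5 and 1 cells in the same order, Kdr in 12, 3 and 1, Otx2 in 11, 7 and 1, and Cer1 in 8, 2 and 1. Wnt8a and Nkx1-2, known from the posterior streak and the caudal epiblast, were in 0 of the 16, in 6 and 7 of the 17 and in 5 and 4 of the 11. Pou5f1, the pluripotency factor of the epiblast, was in 0, 8 and 4 cells. Fgf8 and Mesp1 ran through all kinds, Fgf8 in 10, 10 and 9 and Mesp1 in 7 cells of each. Day and clone differ between the kinds, and their part in these counts was not tested.

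Markers of other cell types were counted in the same cells. At day 3, 7 of the 8 cells with 3 or more genes held 2 or more epiblast markers (Pou5f1, Nanog, Fgf5, Utf1, Tdgf1), as did 272 of the 282 cells with none of the 9. At day 6 they were 8 of 20 cells against 111 of 259, and at day 8 2 of 16 against 37 of 198. The cells without any of the 9 include plates that gave none of the 44 cells. Over all days, 17 of the 44 held epiblast markers, against 24.5 given by the cells with none on their own plates. Naive pluripotency markers (Zfp42, Klf2, Klf4, Esrrb, Tbx3), 2 or more, were in 7, against 14.1 by the same weighting. Neural progenitor markers (Sox1, Pax6, Sox2, Hes5), 2 or more, were in 2 of the 44 cells, against 13.9 if they held them as often as the cells with none of the 9 on their own plates. Neuron markers were in 8, against 9.30 by the same weighting, and markers of definitive or visceral endoderm in 3, against 0.163. No cell of the 44 held 2 or more markers of endothelium or of primitive blood, against 2.82 and 0.751 by that weighting. Cdh5, Pecam1, Emcn, Tie1 and the 3 embryonic globins Hbb-bh1, Hba-x and Hbb-y were at 0 in all 44. Kdr, shared by early mesoderm and endothelium, was in 16. Of the mesenchyme list, 5 of the 44 held 2 or more, against 1.26 by that weighting. All 5 were of day 8, through Pdgfra and Twist1, and Col3a1, Col1a1, Lum and Postn were at 0 in the 44. Notochord markers, 2 or more, were in 1 of the 44 cells, with Noto and Shh at 0.

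**Figure D5:**
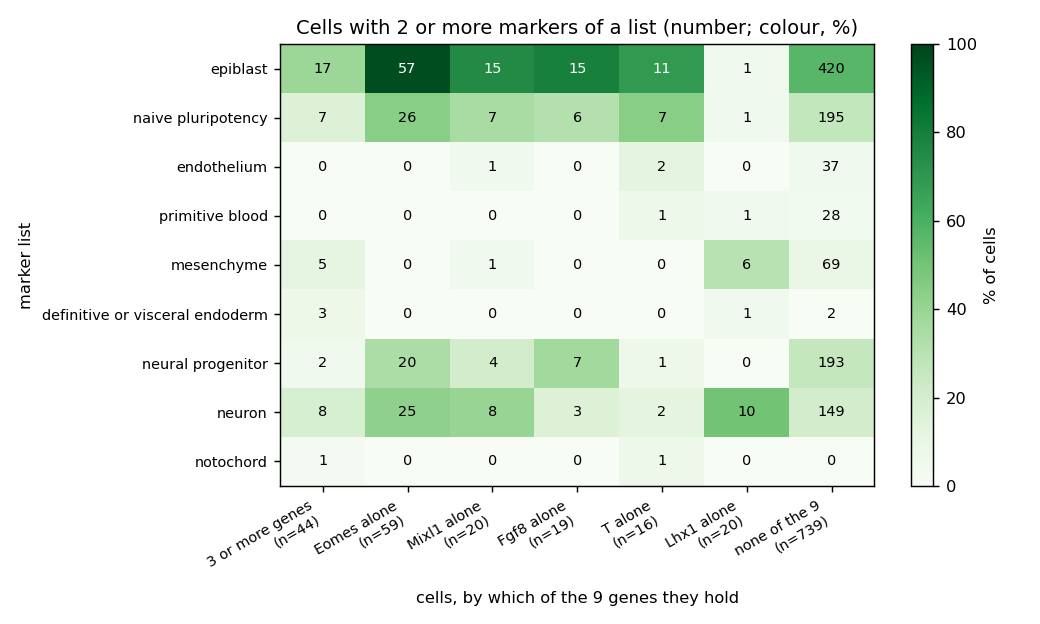
Number (printed) and share (colour, %) of cells with 2 or more markers of each cell type list, for cells with at least 3 of the 9 genes, cells with a single one of them, and cells with none. Cells with Eomes alone held epiblast markers in 57 of 59, cells with Lhx1 alone in 1 of 20, and cells with 3 or more genes in 17 of 44.

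Cells with a single gene of the set were counted by the same lists. The number after each count is the one given by the cells with none of the 9 genes on the same plates. Eomes alone was seen in 59 cells, of which 57 held 2 or more epiblast markers, against 50.997, and 26 held 2 or more naive pluripotency markers (Zfp42, Klf2, Klf4, Esrrb, Tbx3), against 22.9. Neuron markers, 2 or more, were in 25 of the 59, against 12.9, and neural progenitor markers in 20, against 17.5. Clone 3A2 gave 12 of the 20 cells with Eomes alone at day 6. Of the 20 cells with Lhx1 alone, 1 held epiblast markers, against 3.21, 10 neuron markers, against 4.74, and 6 mesenchyme markers, against 3.80. T alone was seen in 16 cells, of which 11 held 2 or more epiblast markers, against 7.11. Over all plates, cells with 1 or 2 of the 9 genes had a median of 310575.5 reads, against 242642 in cells with none. The part of depth in these marker counts was not tested. For Lhx1 and Evx1, the antisense genes Lhx1os and Evx1os are counted in the same table. Lhx1os was seen in 16 of the 49 Lhx1 cells and Evx1os in 10 of the 21 Evx1 cells, and as no strand setting of the counting is known from the sources at hand and Evx1 shares 73 exon bases with Evx1os, reads of that overlap cannot be told apart. Eomes shares 118 exon bases with the antisense gene Gm33460.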

How the data were processed

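Full-length cDNA of single sorted live cells was made by a variant of Smart-seq2. The deposited values are raw read counts, obtained by the authors with FastQC 0.11.2, Trim Galore 0.5.0, STAR 2.7.1a on mm10 (GRCm38) and featureCounts 1.6.1 over exons summed by gene name, with reads of several places left out (strand setting unknown). The authors kept cells with at least 50000 reads, and all columns were matched to a sample. The 9 genes, the other lists and the tests were chosen with earlier results of these data known. Counts were summed per clone and day (14 sums, 9810248 to 44529830 reads), filtered with filterByExpr (24083 genes left) and tested with edgeR 4.0.16 (R 4.3.3; TMM, glmQLFit with robust estimation, glmQLFTest) on 9 genotype-by-day means with 5 residual degrees of freedom and a Benjamini-Hochberg threshold of 0.05. WT, with 1 sum a day, and 3AKO at day 8 were assumed to vary like the knockout clones, and the scripts were tested on simulated data. SEs are the log2 fold change over the square root of F. Shares of cells were compared over clones by exact permutation. All 9 members were named, and of the other lists the genes called or, where none was, up to 3 of the highest mean CPM, beside genes named in the counts of cells, which were chosen after their values were seen. Alternatives were RLE factors, no filter, DESeq2 1.42.0, a clone block, each clone or doubtful library left out, stricter cells, other detection thresholds and thinning to 50000 reads (seed 1). Members' exons and overlaps came from GENCODE vM21, the authors' annotation being a later release, and promoters from RefSeq on GRCm38.p6. Titles of 8 day 8 cells end in NPM, which no source explained, and none of the 8 held a member.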

Additional observations from a re-analysis of the deposited data

Results flagged for a closer look

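Between day 3 and day 6, the share of cells with Fgf8 moved in opposite directions in the clones of the knockouts. It was higher at day 6 in both 3BKO clones, by 5.88 percentage points in 3B126 and 8.59 in 3B77, and lower in both 3AKO clones, with changes of −6.79 in 3A2 and −8.57 in 3A38. The mean changes of 3BKO and 3AKO differed by 14.9 percentage points. The difference was not tested, and batch and genotype cannot be told apart between these clones. WT changed by 8.31 percentage points.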

How the results depend on the processing

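The difference between 3BKO and the other clones in the share of cells with 2 or more genes at day 6 (−0.24 percentage points) turned to 0.598 at 1 read and 0.0623 after thinning, and ran between −3.93 and 2.84 without single clones. With DESeq2, 3 members were called for day 6 against day 3 and 1 each for day 8 against day 6, 3BKO against WT at day 3 and the 3BKO minus WT difference in the change between days 3 and 6. Of all 24083 genes, 1428, 338, 212 and 81 were called in the same order. Without a filter on low counts, 3 members were called for day 6 against day 3 (T, Mesp1 and Lhx1) and 1 for 3BKO against WT at day 3 (T). Of 35661 genes, 808 and 23 were called in these contrasts. The cause was not tested. The number of all genes called for day 6 against day 3, 9, was 5 with RLE factors, 808 without the filter, 1428 with DESeq2, 67 with clone as a replicate block, 36 without the library labelled 3B77 day 8 and C343, 5 with C343 alone, 4 with stricter cells and 1 to 556 without single clones. The block called 0 members and gave Eomes −0.85, and genotype at 1 day could not be fitted with it, clones lying within genotypes.

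Among single genes, the day 6 minus day 3 share turned for Eomes (0.119) and Evx1 (−0.227) at 10 reads and for Fgf8 at 1 read (−2.54) and with stricter cells (−0.813). The 3BKO difference at day 6 turned for Eomes at 1 read (0.812) and for Fgf8 with stricter cells (−0.0799). Without single clones, day differences crossed 0 for Gsc (−0.427 to 0.731), Tbx6 (−0.0151 to 0.699) and Fgf8 (−0.294 to 3.998), and 3BKO differences for T (−0.0799 to 4.23), Eomes (−7.43 to 3.20), Tbx6 (−0.463 to 0.946) and Fgf8 (−2.09 to 6.12). On the log2 scale, day 6 against day 3 turned for Mixl1 with stricter cells (−0.60) and as a mean over cells (−0.27), and for Eomes as a mean over cells (−0.43). It ran from −2.44 to 1.59 for Mixl1, −3.68 to 0.75 for Eomes, −0.19 to 2.54 for Gsc and −1.35 to 0.88 for Fgf8 without single clones. For 3BKO against WT at day 6, stricter cells gave 4.97 for T and −1.13 for Evx1. Of 396 alternatives for single genes 361 kept direction and side of the threshold, and of 119 for the comparisons 109 did. With 5 clones no exact test could pass 0.05, so that for shares of cells only the direction was free to change in these counts. The p-values measure the spread between clones, in which that between plates and batches is included. For edgeR, this spread came from the knockout clones alone.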
